A study of Mus musculus with 71 samples.

Results

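AU-rich element binding proteins are RNA-binding proteins that recognise short A- and U-rich motifs in 3′ UTRs, and the 8 genes described here were Zfp36, Zfp36l1, Zfp36l2, Elavl1, Khsrp, Tia1, Tial1 and Pum2. They were taken by gene name and not by a rule on measured values, although earlier results of these data were known. They are 8 of 21527 genes listed in the tables. All 8 passed the filter on low counts, which kept 12659 genes. The data are SLAM-seq libraries of male mouse embryonic stem cells (mESC), pluripotent cells that were grown in 2i/LIF medium. SLAM-seq marks new RNA with the uridine analogue s4U and reads its later loss as a falling rate of T-to-C conversions. The label was 100 µM s4U over 24 h, and an excess of uridine then started the chase. They were treated with 20 µM STM2457, an inhibitor of the mRNA m6A methyltransferase Mettl3, or with the solvent DMSO, from 6 h before the chase until collection. RNA was collected after 0, 1, 1.5 and 2.3 h and then after 3.5, 5.3, 8 and 12 h. Each time and treatment had 4 replicates, except for STM2457 at 3.5 h with 3. A further 4 libraries per treatment had no s4U, which makes 71 libraries in 18 groups. The cells of every group were male mESC taken from an earlier study, and m6A itself was not measured in these libraries.

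In 3′ UTRs, AU-rich elements recruit proteins that set how long an mRNA lasts and how well it is translated. Proteins of the ZFP36 family bind the elements through zinc fingers and bring in the enzymes that remove the poly(A) tail, so that the target decays. KHSRP (also KSRP) also promotes decay, ELAVL1 (also HuR) mostly protects its targets, and TIA1 and TIAL1 (also TIAR) hold back translation and gather in stress granules. PUM2 belongs to the Pumilio family, which binds a different UGUA-containing element and also shortens mRNA life. Many of these proteins are known to bind the 3′ UTRs of their own family's mRNAs.

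The elements that these proteins recognise were looked for in the members' own 3′ UTRs, since SLAM-seq follows the decay of the members' own mRNAs. The sense strand was searched, with motifs written as DNA and overlapping matches counted. The core of an AU-rich element was searched as ATTTA. The longer form that ZFP36 proteins prefer was searched as TATTTAT, which contains the core. The Pumilio element was searched as TGTANATA, with N for any base. A common form of the m6A motif was searched as GGAC. 3′ UTRs were taken from GENCODE M21 on GRCm38, and the sites below are shown 5′ to 3′ with 10 or so bases on each side. Capitals mark the longer AU-rich form, the core alone in Khsrp, and the Pumilio element where a line says so. The lines show 1 AU-rich match of each member and every Pumilio match, since these are the elements that the members' own products bind.
Zfp36 (chr7:28376927-28376953, minus strand): gattttatagTATTTATatatattggg
Zfp36l1 (chr12:80108423-80108449, minus strand): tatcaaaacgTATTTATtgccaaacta
Zfp36l2 (chr17:84184915-84184941, minus strand): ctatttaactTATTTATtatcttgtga
Elavl1 (chr8:4285785-4285811, minus strand): gaaaattattTATTTATttatttattt
Khsrp (chr17:57021587-57021613, minus strand): aaatagcaagaATTTAacctctgcccc
Tia1 (chr6:86430468-86430494, plus strand): agatacaatgTATTTATttaaaagatt
Tial1 (chr7:128442424-128442450, minus strand): aaaatgaaaaTATTTATtttaaaaatt
Tial1, Pumilio site (chr7:128441740-128441765, minus strand): gataaacatTGTAAATAttgaataac
Pum2 (chr12:8749817-8749843, plus strand): aaagcaaaacTATTTATtgactttctt
Pum2, Pumilio site (chr12:8750156-8750181, plus strand): ttatagagaTGTATATAgaattatag
Pum2, Pumilio site (chr12:8750409-8750434, plus strand): gtacagaatTGTATATActtataatt

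TATTTAT was present in the 3′ UTRs of 7 of the 8 members, and Khsrp was the one without it. Zfp36, Zfp36l1 and Zfp36l2 held 3 matches each, and Elavl1 held 8, of which several overlap in a run of short repeats. Tia1, Tial1 and Pum2 held 1 match each. These counts depend on the length of the 3′ UTR. Among genes whose 3′ UTR was at least as long, the last bases of the same length held TATTTAT in 20.6% for the 774 bases of Zfp36, in 35.98% for the 1835 bases of Zfp36l1 and in 58.03% for the 4218 bases of Elavl1. For the 2756 bases of Tial1 the share was 47.1%. It was 35.8% for the length of Zfp36l2, 49.6% for Tia1, 48.1% for Pum2 and 33.75% for Khsrp. These are shares of 3′ UTRs with at least 1 match and give no background for the number of matches. Pumilio elements were found in Tial1, with 1 match, and in Pum2, with 2 matches, where 43.2% and 44.1% of 3′ UTRs of that length held at least 1. GGAC was found in all 8 members, with 3 matches in Zfp36 and 13 in Elavl1, and 84.3% of 3′ UTRs as long as that of Zfp36 held it. A match is a description of the letters only, and binding was not measured.

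The libraries held between 4539726 and 7368244 counted reads, with a median of 5726508. Of the markers fixed for mouse ES cells, 9 of 10 were in the tables and all 9 passed the filter, with 3790 to 5548 CPM in sum. CPM are counts per 1e6 reads, from plain library totals for the markers and after TMM scaling for the members below. Among the 9, Dppa5a had the highest median, with 2683 CPM. Klf4 had the lowest, with 2.71 CPM, and was at 0 CPM at its lowest. The medians of the others ran from 32.2 CPM for Tfcp2l1 to 822 CPM for Pou5f1. Of the 15 markers of differentiated or feeder cells, 12 were in the tables and 6 passed the filter, with 40.4 to 142 CPM in sum over the 12. The highest medians among them were 19.5 CPM for Cdx2, 14.8 for T, 10.9 for Thy1 and 7.27 for Eomes. T reached 74.5 CPM at its highest. The collagens Col1a1, Col1a2 and Col3a1 had medians of at most 0.160 CPM. The ranges of both sums overlapped between DMSO and STM2457. On the first principal component of all libraries, which held 45.3% of the variance, 12 libraries stood apart with scores of at least 21.8, against at most 11.31 in the other 59. They were 9 of the 36 DMSO libraries and 3 of the 35 STM2457 libraries. In DMSO they were replicate 4 without s4U, replicate 1 at 0 h, replicates 2, 3 and 4 at 1 h, replicates 2 and 4 at 1.5 h and replicates 3 and 4 at 5.3 h, and in STM2457 they were replicates 1, 2 and 4 at 1 h. What sets them apart was not tested.

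Several members moved with these libraries. Elavl1 was at 64.2 to 98.1 CPM in the 12 libraries and at 102 to 187 CPM in the other 59, so that the ranges did not overlap. Pum2 was at 127 to 208 CPM in the 12 and at 93.0 to 152 CPM in the 59, and Tial1 at 88.4 to 137 against 61.2 to 133 CPM. The correlation with the score over 71 libraries was −0.87 for Elavl1, 0.78 for Pum2 and 0.66 for Tial1, and over the 59 libraries it was −0.41, 0.59 and 0.60. Khsrp had a correlation of −0.19 over all and 0.50 over the 59 libraries. The members are themselves among the expressed genes that make the score, the libraries share groups, and the correlations are given as a description. Comparisons are therefore given with and without these 12 libraries wherever a call or a direction rests on them.

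**Figure D1:**
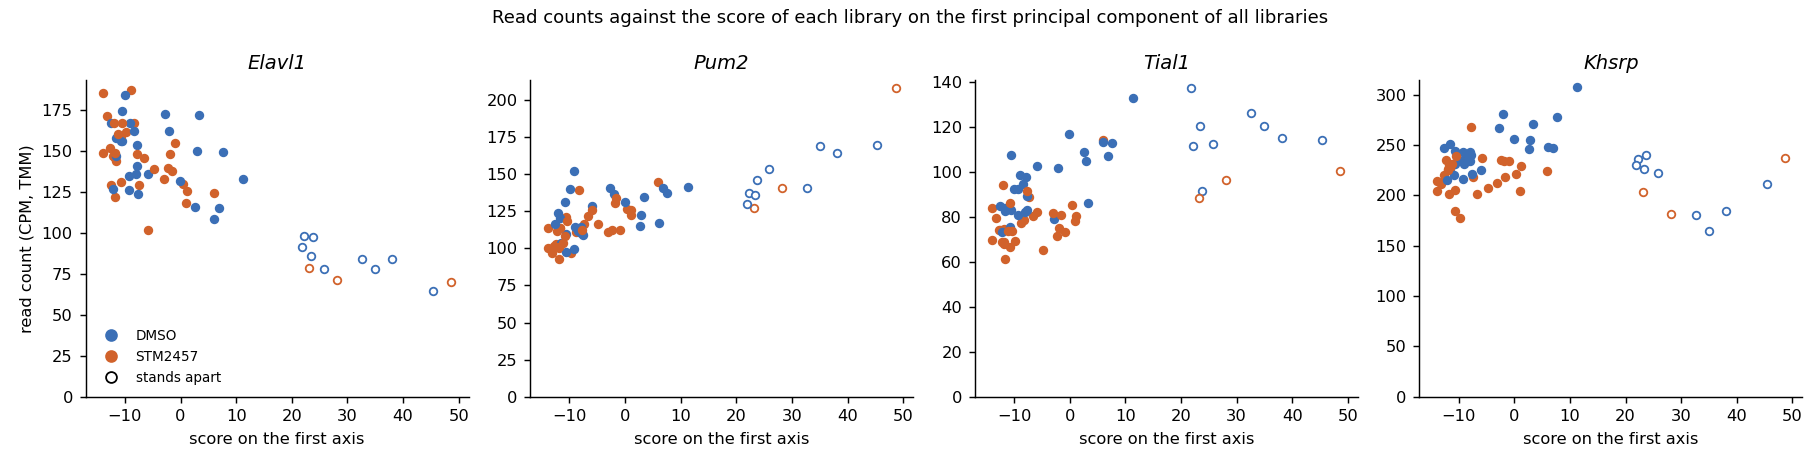
Read counts of Elavl1, Pum2, Tial1 and Khsrp (CPM after TMM) in 71 libraries against the score of each library on the first principal component; open points are the 12 libraries that stood apart, blue DMSO and orange STM2457. Elavl1 lies between 64.2 and 98.1 CPM in the open points, below all the others, while Pum2 and Tial1 tend to lie higher there.

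Per length of the counted 3′ window, Khsrp and Elavl1 were the most abundant members and Zfp36 the least. The median over 71 libraries was 887 CPM per kb for Khsrp, 558 for Elavl1, 184 for Zfp36l1 and 113 for Tial1. Zfp36l2 and Pum2 followed with 87.9 and 87.6 CPM per kb, Tia1 with 43.97 and Zfp36 with 16.8 CPM per kb. Reads of a 3′ end library come from the end of a transcript and need not scale with the length of the window, and the median read counts gave another order. They were 229.9 CPM for Khsrp, 139 for Elavl1, 121 for Pum2, 85.0 for Tial1, 46.9 for Zfp36l1, 33.3 for Tia1, 21.98 for Zfp36l2 and 4.27 for Zfp36, so that Pum2 stood above Zfp36l1. In DMSO at 0 h, the libraries of Khsrp, Elavl1, Zfp36l1 and Tial1 were ranked in this order without overlap between neighbours. Tial1 (149.97 CPM per kb on average) overlapped with Zfp36l2 (104), and Zfp36l2 with Pum2 (97.6), so that the order of these neighbours did not hold beyond their spread. Zfp36 was counted with 4 to 59 reads per library and its values are the least precise. Of the reads of Zfp36l2, 99.9% were multimapping, against under 0.6% in each of the other members, so that reads of this gene may come from another locus and its values are uncertain.

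The first comparison asks which members differed in read count between inhibited and control cells. Averaged over the 8 chase times, Tial1, a translational repressor of the stress granule, was lower in STM2457, and no other member passed the threshold. Tial1 was at 0.793 times its DMSO level. The 1 member called of 8 stands beside 26.5% of all genes tested that were called in this contrast (adjusted p under 0.01, edgeR). The median log2 fold change was −0.06 over the members and −0.01 over all genes. A bulk count gives the share of reads in a library, and lower RNA per cell cannot be told apart from fewer cells that express the gene.

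For Tial1, the DMSO libraries at 1.5 h held 109, 112, 113 and 137 CPM and the STM2457 libraries 66.7, 68.8, 74.7 and 68.9 CPM (replicates 1 to 4). At 5.3 h, the values were 117, 107, 126 and 120.2 CPM in DMSO and 81.6, 77.9, 65.4 and 80.4 CPM in STM2457. At 2.3 h they were 92.4, 103, 98.7 and 97.8 CPM in DMSO and 82.2, 74.1, 69.6 and 79.4 CPM in STM2457. At these 3 times every STM2457 library was below every DMSO library. At 0 h, DMSO held 111, 133, 102 and 105 CPM and STM2457 85.3, 114, 88.7 and 78.7 CPM. At 1 h, DMSO held 94.7, 114, 120.3 and 115 CPM and STM2457 96.3, 88.4, 81.0 and 100.5 CPM. At 3.5 h, DMSO held 83.7, 92.6, 83.0 and 107 CPM and the 3 STM2457 libraries 61.2, 83.9 and 86.1 CPM. The groups overlapped at each of these times, by 1 or 2 libraries. Late in the chase, Tial1 was at 75.5, 82.3, 82.5 and 80.7 CPM in DMSO at 8 h and at 73.4, 80.4, 74.3 and 73.9 CPM in STM2457. At 12 h it was at 83.2, 73.1, 89.2 and 85.0 CPM in DMSO and at 91.6, 73.7, 67.7 and 94.1 CPM in STM2457. At 8 h 3 of the 4 STM2457 libraries were below every DMSO library, and at 12 h the ranges overlapped more widely.

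The averaged log2 fold change of Tial1 was −0.33 (SE 0.04, 95% confidence interval −0.42 to −0.25, adjusted p = 5.83e-10, edgeR's quasi-likelihood test with Benjamini-Hochberg adjustment). Its estimate was lower in STM2457 at 8 of 8 chase times, as it was for 7.30% of all genes. At single times, Tial1 was called at 1.5 h with a log2 fold change of −0.76 (SE 0.12, adjusted p = 3.06e-06, edgeR) and at 5.3 h with −0.62 (SE 0.12, adjusted p = 0.000141, edgeR). The estimate was −0.30 at 0 h, −0.28 at 1 h, −0.36 at 2.3 h, −0.25 at 3.5 h, −0.09 at 8 h and −0.02 at 12 h, none of them past the threshold. It was the 1 member called at 1.5 h and at 5.3 h, where 8.18% and 4.45% of all genes were called. None of the members was called at 0 h (1.68% of genes called), 1 h (1.53%), 2.3 h (1.61%), 3.5 h (1.30%), 8 h (2.34%) or 12 h (5.41%), and between 0 and 2 members had an unadjusted p under 0.05 at these times.

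DMSO libraries that stood apart held high Tial1 at the times where it was called, with 112 and 137 CPM at 1.5 h and 126 and 120.2 CPM at 5.3 h. Without the 12 libraries, the averaged log2 fold change was −0.31 (adjusted p = 3.97e-07, edgeR) and with the library score as a covariate −0.30 (adjusted p = 6.13e-10, edgeR). At 1.5 h it was −0.67 without them (adjusted p = 0.000510, edgeR). At 5.3 h it was −0.55 and no longer passed the threshold (adjusted p = 0.0101, edgeR). Without s4U, Tial1 was at 79.1, 113, 86.1 and 91.5 CPM in DMSO and at 69.1, 77.0, 71.5 and 75.1 CPM in STM2457. The libraries did not overlap, but the log2 fold change of −0.34 (SE 0.12) did not pass the threshold (adjusted p = 0.0717, edgeR), with 2.58% of all genes and none of the members called without s4U, 3 of them with an unadjusted p under 0.05.

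**Figure D2:**
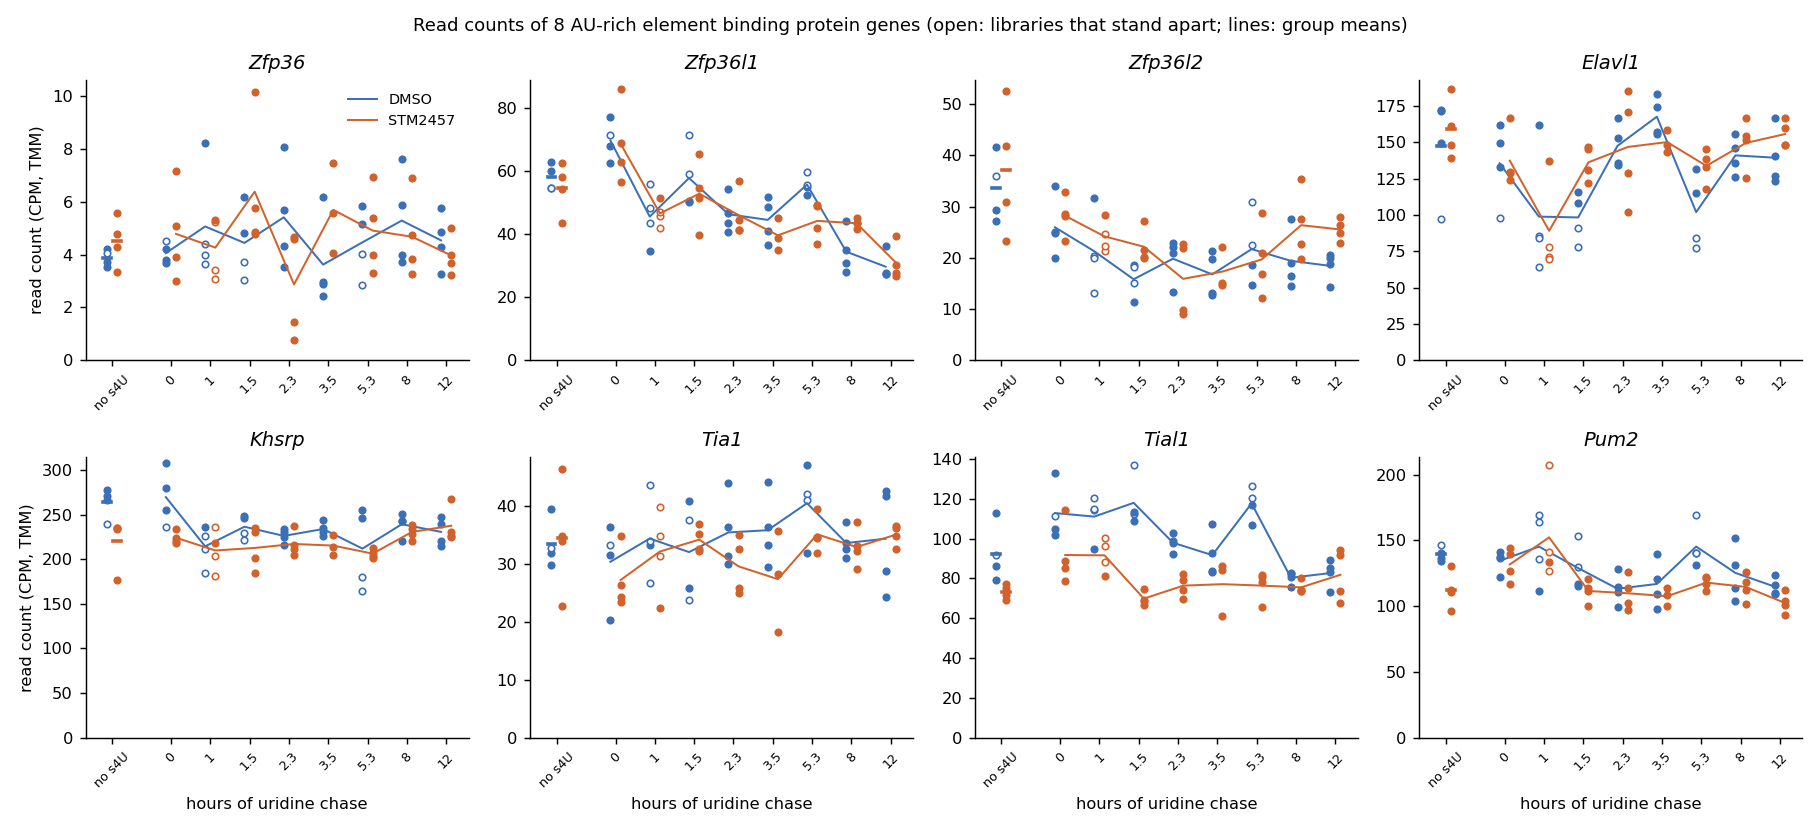
Read counts of the 8 members (CPM after TMM) by hours of uridine chase, with each library as a point, group means as lines or bars, DMSO in blue, STM2457 in orange and the 12 libraries that stood apart as open points; "no s4U" marks the unlabelled libraries. Tial1 lies lower in STM2457 at 1.5, 2.3 and 5.3 h without overlap and its ranges overlap with DMSO at 8 and 12 h, and Zfp36l1 falls in both treatments.

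Among the other members, Khsrp, a decay-promoting protein with KH domains, and Pum2 had averaged estimates below 0. Khsrp was at 236, 308, 280.5 and 255 CPM in DMSO and at 221, 224, 218 and 234 CPM in STM2457 at 0 h. Without s4U it was at 267, 278, 271 and 240.02 CPM in DMSO and at 177, 235, 235 and 234 CPM in STM2457. In both settings every STM2457 library was below every DMSO library. Over the chase its log2 fold change was −0.08 (SE 0.04, 0.943-fold, adjusted p = 0.0575, edgeR). Without the libraries that stood apart it was −0.15 (adjusted p = 0.000853, edgeR), and with the library score as a covariate −0.11 (adjusted p = 0.00585, edgeR), so that Khsrp passed the threshold in both. The estimate was below 0 at 7 of 8 chase times, with 0.04 at 12 h.

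Pum2 was at 131, 141, 140.5 and 169 CPM in DMSO and at 111, 122, 117 and 122 CPM in STM2457 at 5.3 h, without overlap. At 12 h it was at 110.2, 124, 109 and 116 CPM in DMSO and at 112, 104, 101 and 93.0 CPM in STM2457, with overlap. Its averaged log2 fold change of −0.12 (SE 0.04, adjusted p = 0.0337, edgeR) missed the threshold. It passed without STM2457 replicate 4 (−0.15, adjusted p = 0.00792, edgeR), whose library at 1 h held 208 CPM and stood apart. Without all 12 such libraries the value was −0.07 (adjusted p = 0.315, edgeR).

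Elavl1, which protects its targets, had an averaged log2 fold change of 0.10 (SE 0.07, adjusted p = 0.243, edgeR). Its estimates were highest at 1.5 h, with 0.47 (adjusted p = 0.0681, edgeR), and at 5.3 h, with 0.39 (adjusted p = 0.169, edgeR). At 1.5 h the DMSO libraries held 116, 77.8, 108 and 91.3 CPM and the STM2457 libraries 131, 147, 146 and 122 CPM, without overlap. The DMSO values of 77.8 and 91.3 CPM are from libraries that stood apart, as are those of 84.0 and 77.6 CPM at 5.3 h. Without the 12 libraries the averaged value was 0.01 (adjusted p = 0.973, edgeR), and with the score as a covariate −0.02, which is the opposite sign. The direction of Elavl1 between treatments thus changed with these libraries.

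The ZFP36 family and Tia1 gave smaller or less precise values. Zfp36l1 differed by −0.03 (95% confidence interval −0.14 to 0.08), Zfp36 by 0.00 (−0.27 to 0.28) and Zfp36l2 by 0.16 (−0.02 to 0.35) on the log2 scale over the chase. Tia1, the paralogue of Tial1, was at −0.13 (−0.27 to 0.01, adjusted p = 0.151, edgeR). Tia1 was measured with a median of 198 reads per library against 508 for Tial1, and no test of the difference between these paralogues was made. The estimates of Zfp36 ranged from −0.90 at 2.3 h, where STM2457 libraries held 4.58, 1.45, 0.782 and 4.66 CPM, to 0.65 at 3.5 h, and none passed the threshold.

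**Figure D3:**
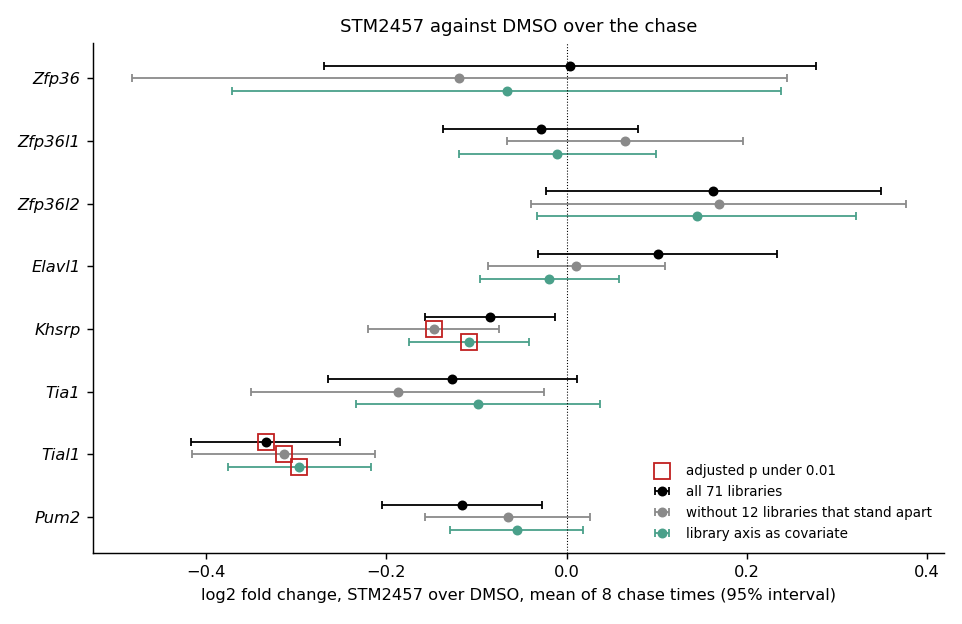
Log2 fold change of read counts between STM2457 and DMSO averaged over 8 chase times, with 95% confidence intervals, for all 71 libraries (black), without the 12 libraries that stood apart (grey) and with the library score as a covariate (green); squares mark an adjusted p under 0.01 (edgeR). Tial1 is lower in all 3 fits, Khsrp passes in 2 of them, and Elavl1 moves from 0.10 to 0.01 and −0.02.

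The next comparison asks how the members' read counts moved during the chase itself, in each treatment. Zfp36l1, which encodes a zinc-finger decay factor, fell in both treatments to less than its level at 0 h. In DMSO it was at 71.4, 62.4, 67.8 and 77.1 CPM at 0 h and at 27.4, 27.8, 36.2 and 27.3 CPM at 12 h. In STM2457 it was at 56.6, 86.0, 68.95 and 62.8 CPM at 0 h and at 30.2, 26.6, 39.3 and 27.8 CPM at 12 h. No library at 12 h reached the lowest library at 0 h in either treatment. The log2 fold change from 0 to 12 h was −1.23 in DMSO (SE 0.15, 0.426-fold, adjusted p = 4.07e-09, edgeR) and −1.14 in STM2457 (SE 0.15, 0.452-fold, adjusted p = 1.36e-07, edgeR). Between the ends, the means in DMSO were 45.5 CPM at 1 h, 57.8 at 1.5 h, 55.7 at 5.3 h and 34.4 at 8 h, so that the fall was not even. At 8 h the 4 DMSO libraries were at 27.9, 35.02, 43.99 and 30.8 CPM and the 4 STM2457 libraries at 43.6, 45.1, 43.4 and 41.7 CPM, a log2 difference of 0.34 that did not pass the threshold (adjusted p = 0.242, edgeR).

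Tial1 was the other member called, in DMSO, with −0.45 (SE 0.12, 0.733-fold, adjusted p = 0.00276, edgeR), and its value in STM2457 was −0.16 (adjusted p = 0.426, edgeR). In DMSO 2 members were called beside 13% of all genes, and in STM2457 1 member beside 4.72%. The call of Tial1 was lost with plain library totals (−0.31, adjusted p = 0.0569, edgeR), with the library score as a covariate (−0.35, adjusted p = 0.0126, edgeR) and without DMSO replicate 1 (−0.46, adjusted p = 0.0133, edgeR) or DMSO replicate 2 (−0.32, adjusted p = 0.0917, edgeR). Zfp36l1 kept its call in each of these, and with library totals it was at −1.09 in DMSO and −1.03 in STM2457. Library totals moved the median of all genes to 0.18 in DMSO and 0.12 in STM2457, and the share of called genes that were higher from 37.1% to 64.7% in DMSO and from 35.8% to 69.7% in STM2457. Khsrp was called in DMSO without the libraries that stood apart (−0.30, adjusted p = 0.00779, edgeR), against −0.23 (adjusted p = 0.0995) in the fit of all libraries.

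The remaining members did not pass the threshold over the chase. Pum2 was at −0.23 in DMSO and −0.36 in STM2457 (adjusted p = 0.189 and 0.0515, edgeR). Zfp36l2 was at −0.50 and −0.14, Tia1 at 0.18 and 0.36, Elavl1 at 0.04 and 0.18 and Zfp36 at 0.16 and −0.27. The sign of Elavl1 in DMSO was the opposite without the libraries that stood apart (−0.11) and with the score as a covariate (−0.27). The members' median was −0.23 in DMSO and −0.15 in STM2457, against 0.04 and 0.00 over all genes.

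The difference between the treatments in this change was tested directly, and no member passed, with 1.11% of all genes called and 1 member, Khsrp, at an unadjusted p under 0.05. It was 0.09 for Zfp36l1 (95% confidence interval −0.34 to 0.52), 0.28 for Tial1 (−0.04 to 0.61) and 0.31 for Khsrp (0.02 to 0.60, adjusted p = 0.299, edgeR). The label itself was checked by the comparison of labelled DMSO cells at 0 h with unlabelled DMSO cells. None of the members was called, with 0.513% of all genes called and 1 member, Tial1, at an unadjusted p under 0.05 (log2 fold change 0.29, adjusted p = 0.259, edgeR). How long the unlabelled cells had been treated is not given in the sources used here.

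The conversion rates follow how fast labelled mRNA was lost. All members lost most of their label by 5.3 h in both treatments, and in DMSO the mRNAs of the ZFP36 family were lowest at 3.5 h and those of Elavl1 and Khsrp highest. At 3.5 h, after subtraction of the rate in unlabelled libraries, the DMSO rate was 9.27% of its value at 0 h for Zfp36l1, 15.7% for Zfp36l2 and 12.4% for Zfp36. It was 82.7% for Elavl1, 67.7% for Khsrp, 61.9% for Tial1, 61.1% for Tia1 and 48.2% for Pum2. In STM2457 the values were 32.3% for Zfp36l1, 32.6% for Tia1 and 32.1% for Pum2, so that Zfp36l1 did not stand below these, and 83.8% for Tial1. Elavl1 was at 81.0% and Khsrp at 67.7% there, Zfp36 at 16.7% and Zfp36l2 at −0.79%, which is below its DMSO value although its fitted half-life was longer in STM2457. The median of the 7408 transcripts with a half-life in both treatments was 59.5% at that time. Between 3.5 and 5.3 h the median dropped to 14.5% in DMSO and from 60.2% to 18.3% in STM2457, and Elavl1 went from 82.7% to 29.3% in DMSO and from 81.0% to 35.96% in STM2457. Khsrp, Tia1, Tial1 and Pum2 were also lower at 5.3 h than at 3.5 h in both treatments, while Zfp36l1 in DMSO was already low at 3.5 h and Zfp36l2 in STM2457 was at −0.79% and then 4.87%.

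The rates behind these shares came from few conversions in the less abundant members. The rates of Zfp36l2 may come from another locus, since 99.9% of its reads were multimapping. For Zfp36l1 at 0 h, the rates were 1.09%, 1.01%, 1.28% and 0.929% in DMSO and 0.998%, 1.13%, 0.869% and 1.26% in STM2457, each over 9423 to 13024 covered T positions. At 3.5 h they were 0.0710%, 0.125%, 0.163% and 0.246% in DMSO and 0.230%, 0.297% and 0.562% in STM2457. Only the lowest STM2457 value lay within the range of DMSO. For Tial1 at 1.5 h, the rates were 0.691%, 0.649%, 1.05% and 1.04% in DMSO and 1.18%, 1.08%, 1.201% and 1.28% in STM2457, without overlap. At 0 h, Tial1 was at 1.37%, 1.73%, 1.70% and 1.31% in DMSO and at 1.41%, 1.33%, 1.2498% and 1.22% in STM2457, with overlap. The rate at 0 h enters every share as its denominator. For Zfp36, the 4 DMSO rates at 0 h ran from 0.148% to 2.06%, over 339 to 828 covered T positions. Its lowest coverage was 94 T positions, in an STM2457 library at 2.3 h.

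**Figure D4:**
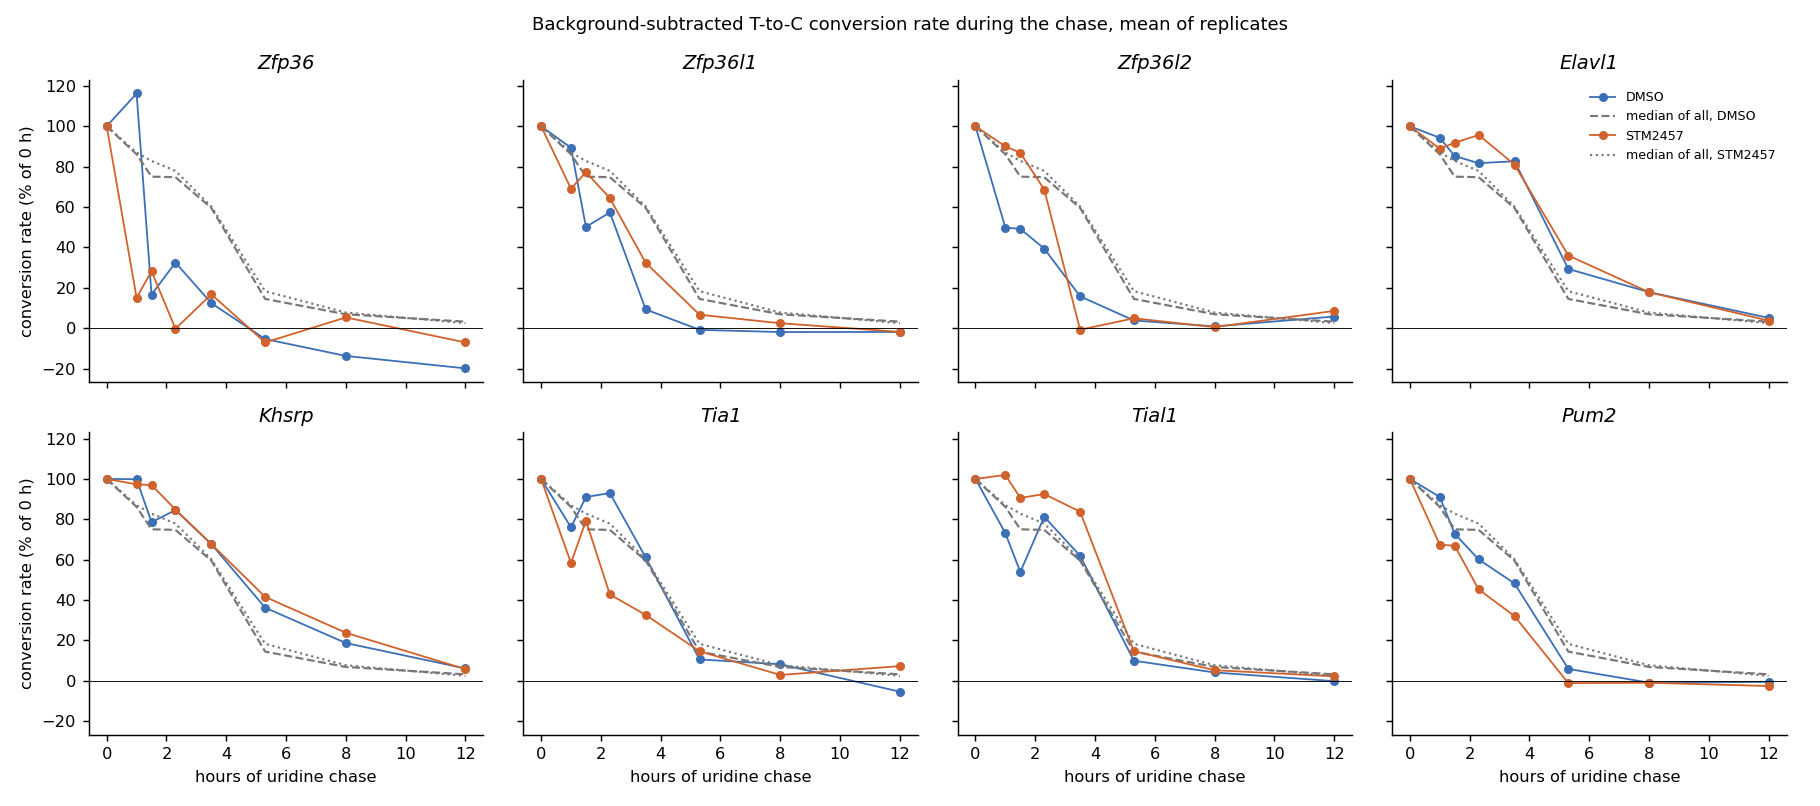
Background-subtracted T-to-C conversion rate in percent of its value at 0 h against hours of uridine chase, as the mean of replicates for each of the 8 members (DMSO blue, STM2457 orange), with the median of 7408 transcripts as dashed (DMSO) and dotted (STM2457) lines. Zfp36l1 and Zfp36l2 lie below the median at 3.5 h, at 9.27% and 15.7% in DMSO, where Elavl1 with 82.7% and Khsrp with 67.7% lie above it.

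Half-lives were fitted as an exponential decay fixed at 1 at 0 h, and 7 of the 8 members passed the limits of the fit. In DMSO, Zfp36l2 had a half-life of 1.36 h and Zfp36l1 of 1.77 h, which are at the 3.91 and 10.5 percentiles of all transcripts. With 99.9% of its reads multimapping, the half-lives of Zfp36l2 here and below may not be those of this gene. Pum2 followed with 2.58 h, Tial1 with 2.84 h and Tia1 with 3.45 h, around the median of 3.19 h. Khsrp with 4.42 h and Elavl1 with 4.51 h lay at the 76.2 and 77.7 percentiles. Zfp36 was fitted at 1.41 h in DMSO and 0.518 h in STM2457, and the latter is below the lower limit of 0.67 h, so that Zfp36 was left out. In STM2457 the half-lives were 2.21 h for Zfp36l2, 2.32 h for Zfp36l1, 1.87 h for Pum2 and 4.17 h for Tial1. They were 2.10 h for Tia1, 4.90 h for Khsrp and 4.89 h for Elavl1.

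The half-life was longer in STM2457 for 5 of the 7 members and shorter for Tia1 and Pum2, and 56.7% of all transcripts were longer. The median ratio of STM2457 to DMSO was 1.11 over the members and 1.05 over all transcripts, whose quartiles were 0.859 and 1.304. Tial1, with a lower read count in STM2457, had a ratio of 1.47. Zfp36l2 had 1.63, Zfp36l1 1.31, Khsrp 1.11 and Elavl1 1.08, while Pum2 had 0.723 and Tia1 0.610. Without the libraries that stood apart, Tia1 was at 0.833 and Zfp36l2 at 2.42, and the fit of Tia1 without DMSO replicate 3 and that of Zfp36l2 without STM2457 replicate 3 exceeded the limit on the residual error. With all libraries and the value at 0 h fitted freely in place of fixed at 1, the ratio of Tial1 was 1.19. It was then 1.36 for Zfp36l2, 1.36 for Zfp36l1, 1.07 for Khsrp, 1.06 for Elavl1, 0.781 for Pum2 and 0.697 for Tia1. All these ratios come from rates averaged over replicates and carry no error of their own.

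The spread between replicates was taken from half-lives fitted to each replicate series, that is, the labelled libraries with 1 replicate number. The fourth STM2457 series had no library at 3.5 h and was fitted on the other times. Leaving out 3.5 h can itself move a fit. With averaged DMSO rates it took the half-life of Elavl1 from 4.51 to 3.90 h and that of Zfp36l1 from 1.77 to 1.98 h. For Pum2, the series gave 2.81, 2.26, 2.63 and 2.69 h in DMSO and 2.55, 1.80, 1.39 and 1.94 h in STM2457. The first STM2457 series lay within the range of DMSO and the other 3 below it. The log2 ratio was −0.46 (95% confidence interval −0.90 to −0.03, adjusted p = 0.398, limma with Benjamini-Hochberg adjustment), with p = 0.0571 in a two-sided exact permutation test, where 4 against 4 series cannot give less than 0.0286. For Zfp36l1, the series gave 1.79, 2.09, 1.33 and 1.99 h in DMSO and 1.91, 2.39, 3.19 and 2.06 h in STM2457, with overlap. Its log2 ratio was 0.40 (−0.06 to 0.86, adjusted p = 0.495, limma). Elavl1 differed by 0.06 (−0.37 to 0.48) and Khsrp by 0.13 (−0.28 to 0.55).

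These 4 members had a half-life in every series, and none was called, where 1 of 1825 transcripts, or 0.0548%, was called by limma (adjusted p under 0.05) and 215 had an unadjusted p under 0.05, Pum2 among them. For Tial1, the DMSO series gave 3.56, 2.18, 2.41 and 3.54 h and 3 STM2457 series 3.88, 2.92 and 4.54 h, and the third STM2457 series could not be fitted within the limits. The treatments overlapped and did not differ beyond this spread (two-sided exact permutation test, p = 0.229, smallest possible 0.0286). Tia1 and Zfp36l2 had 5 series each within the limits, those of Tia1 between 1.52 and 5.00 h, and were not tested.

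**Figure D5:**
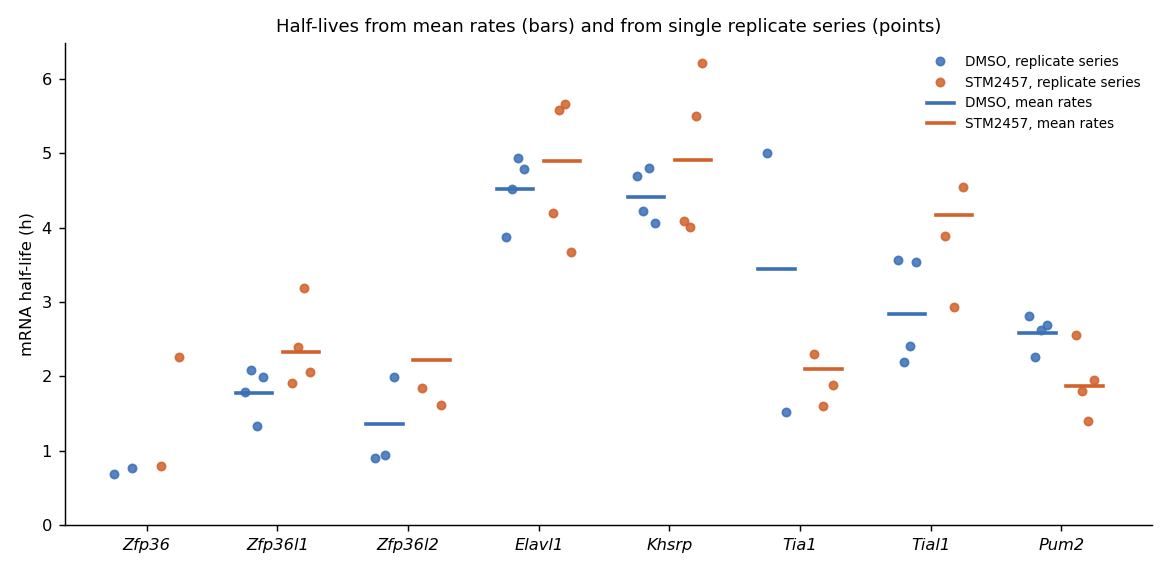
mRNA half-lives in hours of the 8 members, from rates averaged over replicates (bars) and from single replicate series (points) in DMSO (blue) and STM2457 (orange); series outside the limits of the fit are not drawn, and Zfp36 has no bar. Zfp36l1 and Zfp36l2 lie under 3.5 h and Elavl1 and Khsrp between 3.66 and 6.21 h, and the points of the treatments overlap for these last 2 members.

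A test on the conversions in all 63 labelled libraries compared the treatments without subtraction of a background. Each chase time had its own level in the fit, so that the shape of the decay was free, and the log2 difference between treatments was taken to change linearly with the hours of chase. No member was called, beside 6.01% of 10079 genes (191 slower and 415 faster in STM2457, adjusted p under 0.05, edgeR). None of the members had an unadjusted p under 0.05 in this fit of all 63 libraries. The difference was 0.11 per hour on the log2 scale for Zfp36l2 (95% confidence interval −0.07 to 0.30), 0.02 for Tial1 (−0.05 to 0.09) and 0.01 for Zfp36l1 (−0.14 to 0.15). For the well-covered Elavl1 and Khsrp it was 0.00 (−0.04 to 0.04) and 0.01 (−0.03 to 0.05), and for Pum2 0.00 (−0.06 to 0.05). Without DMSO replicate 3, the difference of Zfp36l2 was 0.32 (0.05 to 0.60, unadjusted p = 0.00973, adjusted p = 0.115, edgeR). Without any other single replicate it lay between 0.05 and 0.16. For Pum2, the mean rates at 8 and 12 h were below the unlabelled mean in both treatments. In DMSO they were 0.0841% and 0.0892% against 0.0962%. For Tial1 at 12 h, the mean rate was 0.0747% against 0.0773% without s4U in DMSO, and 0.0939% against 0.0665% in STM2457. For Zfp36l1 in DMSO, the mean rates at 5.3, 8 and 12 h were 0.0477%, 0.0366% and 0.0371% against 0.0564% without s4U. For Zfp36l2 in STM2457 at 8 h, the mean rate was 0.0599% against 0.0548% without s4U. Such late libraries hold little label, yet they enter a difference taken as linear in hours without subtraction of a background. This test therefore cannot decide whether the ratios of the fitted half-lives of Tial1, Pum2, Zfp36l1 and Zfp36l2 had a counterpart.

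Other genes of the same pathway were read from lists. Of 20 other proteins that bind AU-, U- or GU-rich 3′ UTRs, 19 were tested, 1 was higher and 3 were lower in STM2457 over the chase, where 26.5% of all genes were called. Hnrnpab had a log2 fold change of −0.29 (adjusted p = 6.63e-11, edgeR) and Fxr1, a relative of the fragile X protein, of −0.23 (adjusted p = 0.000180, edgeR). Rc3h2, which encodes Roquin-2, was at −0.23 (adjusted p = 0.00500, edgeR), a call that was lost without the libraries that stood apart (−0.14, adjusted p = 0.1001). Fubp1, of the same KH-domain family as Khsrp, was at 0.20 (adjusted p = 4.05e-09, edgeR). The median of the list was −0.03. From 0 to 12 h, 1 rose and 2 fell in DMSO, where 13% of all genes were called. In STM2457 1 rose and 3 fell, beside 4.72% of all genes. The medians were −0.19 and −0.23, against 0.04 and 0.00 over all genes. The difference between treatments was called for none, beside 1.11% of all genes.

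Of 18 transcripts known to carry AU-rich elements, 14 were tested, 4 were higher and 2 lower in STM2457 over the chase, beside the same 26.5% of all genes. Mcl1, which encodes an anti-apoptotic protein, was at 0.29 (adjusted p = 4.57e-11, edgeR), the pluripotency factor Nanog at 0.36 (adjusted p = 1.73e-10, edgeR) and the kinase gene Pim1 at 0.36 (adjusted p = 1.31e-07, edgeR). Jun, an AP-1 subunit, was at −0.36 (adjusted p = 1.89e-06, edgeR). The median of the list was 0.01. From 0 to 12 h in DMSO, 5 of the 14 fell and none rose, with a median of −0.55 against 0.04 over all genes, of which 13% were called. In STM2457 2 fell and none rose, with a median of −0.08 against 0.00 over all genes, of which 4.72% were called. In the difference between treatments 1 was called, with a higher value in STM2457, beside 1.11% of all genes. The median of the list was 0.27 there, against −0.03 over all genes.

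The genes whose level over the 18 groups was most like that of Tial1 were Ccng1, a p53 target that encodes cyclin G1, with a Pearson correlation of 0.93 of group-mean log2 CPM, and Fat1, an atypical cadherin, with 0.93. Without the libraries that stood apart the correlations were 0.92 and 0.93. Both genes were lower in STM2457, with −0.58 for Ccng1 (adjusted p = 4.00e-14, edgeR) and −0.52 for Fat1 (adjusted p = 7.23e-10, edgeR). They were picked for likeness to Tial1 over groups that differ in treatment. Their direction in STM2457 thus follows largely from the choice and is no separate result. Over the groups, the mean library score correlated with Tial1 at 0.75, with Ccng1 at 0.82 and with Fat1 at 0.84, and the part of this score in the likeness was not tested.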

How the data were processed

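Cells were cultured in 24-well plates, and the study's methods name the replicates as independent biological replicates. The labels name the chase times by index alone, and their hours come from the study's scheme. Libraries were made with the QuantSeq 3′ FWD kit and sequenced single-end. Mapping by the authors was with SLAM-DUNK on GRCm38.p6, allowing multimapping reads and masking variants found in merged libraries without s4U, and they counted on GENCODE M23-filtered 3′ UTR windows collapsed per gene. FastQC 0.11.8 is named in the submitters' processing notes. Per gene and library, the authors deposited raw counts, not normalized, for reads, multimapping reads, T coverage and conversions. They also deposited the conversion rate, a fraction that equals conversions over covered T positions in all 909608 entries with coverage (tolerance 1e-09). Reads carried no molecular identifiers as far as stated, so the errors given come from replicates.

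Read counts of all 71 libraries were fitted in 18 groups with edgeR 4.0.16 (R 4.3.3), with TMM, filterByExpr and the quasi-likelihood test, and called at a Benjamini-Hochberg adjusted p under 0.01 over 12659 genes. Half-lives were fitted by a least-squares search with numpy 2.4.6 on rates averaged over replicates after subtraction of the unlabelled mean. The limits were a T coverage above 100, half-lives within 0.67 to 18 h and residual standard errors up to 0.3. Series half-lives were compared with limma 3.58.1 and the two-sided exact permutation test. Slopes were tested with edgeR on conversions with the log of T coverage as offset, and both decay tests were called at an adjusted p under 0.05. Of 105 pairs of libraries within groups, none was identical, and the lowest chi-square per degree of freedom was 2.82. Motifs were searched in GENCODE M21 3′ UTRs, taking for each gene the basic transcript with a CCDS and the longest 3′ UTR. Scripts were tested on simulated data. DESeq2 1.42.0, other normalizations, filters, thresholds and left-out replicates were alternatives, and the fits without the libraries that stood apart or with the library score were added after seeing the data. The 8 members and all lists were chosen with earlier results of these data known, and members are named whether or not they passed a test. At most 4 genes per further list and 2 genes most like a called member are named.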

Additional observations from a re-analysis of the deposited data

Results flagged for a closer look

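In 145 groups of libraries or series of a member, the highest or lowest value was compared with the range of its group by Dixon's test at the 95% level, and 9 values stood out. Chance flags about 1 in 20 such groups. Zfp36 was at 8.23 CPM in DMSO replicate 1 at 1 h, against 3.63 to 4.41 in the other 3, and at 6.18 CPM in DMSO replicate 2 at 3.5 h, against 2.45 to 2.98. Zfp36l1 was at 36.2 CPM in DMSO replicate 3 at 12 h, against 27.3 to 27.8, which leaves it below every library at 0 h. Elavl1 was at 166.8 CPM in STM2457 replicate 4 at 0 h, against 124 to 129. At 1 h it was at 137 CPM in STM2457 replicate 3, against 69.9 to 78.3 in the other 3 libraries, which stood apart while replicate 3 did not. Khsrp was at 177 CPM in the unlabelled STM2457 replicate 1, against 234 to 235, and at 268 CPM in STM2457 replicate 1 at 12 h, against 226 to 231. Tial1 was at 137 CPM in DMSO replicate 4 at 1.5 h, against 109 to 113, and this library stood apart. At 8 h Tial1 was at 80.4 CPM in STM2457 replicate 2, against 73.4 to 74.3.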

How the results depend on the processing

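Tial1 was called over the chase, and Zfp36l1 from 0 to 12 h in both treatments, under every alternative run. Over the chase, 2 members were called with a threshold of 0.05, without the libraries that stood apart or with the library score. When single replicates were left out, 1 to 2 were called, beside 2747 to 3504 genes. Without the libraries that stood apart 2705 of 13565 genes were called, and with the score 3559 of 12659. At 5.3 h, 0 members and 220 of 13565 genes were called without the libraries that stood apart. From 0 to 12 h in DMSO, 2856 genes were called at 0.05. Without single replicates 1008 to 1725 genes and 1 to 2 members were called. With library totals 1 member and 1713 of 12659 genes were called, and with the score 1 member and 1727 genes. In STM2457, 1205 genes were called at 0.05, 1103 without the libraries that stood apart, 1101 with the score and 217 to 704 without single replicates. The difference between treatments gave 283, 236 and 271 genes, and 87 to 112 without single replicates. The half-life test called 0 transcripts without 3.5 h or without background subtraction, 24 with a free amplitude and 0 to 2 without single replicates, and the slope test 441 to 564. The causes were not tested.

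Signs changed for values that did not pass a threshold (log2 scale, ranges without single replicates). Over the chase, Zfp36 was at −0.0116 with library totals, −0.1191 without the libraries that stood apart, −0.0666 with the score, −0.0023 with DESeq2 and −0.0526 to 0.0612. Zfp36l1 was at 0.0646 without the libraries that stood apart and −0.0747 to 0.0154, and Elavl1 at −0.019 with the score. From 0 to 12 h in DMSO, Zfp36 was at −0.0486 with the score and −0.0454 to 0.2443, and Elavl1 at −0.0002 with unique reads, −0.1073 without the libraries that stood apart, −0.2663 with the score and −0.0908 to 0.1891. In STM2457, Zfp36 ranged from −0.4034 to 0.0857 and Tial1 from −0.3028 to 0.007. The difference between treatments ranged from −0.0217 to 0.2956 for Zfp36l1, −0.0085 to 0.2711 for Elavl1 and −0.0017 to 0.3618 for Tia1, and the half-life ratio of Elavl1 from −0.0343 to 0.1745. The slope difference of Elavl1 was 0.0176 with the overall rate as offset, 0.0008 with the replicate block and −0.0069 to 0.0199. That of Pum2 was 0.0106 with this offset, 0.007 without the libraries that stood apart and −0.0207 to 0.0247. That of Tial1 was −0.0028 with converted reads and −0.0225 to 0.0355, and that of Zfp36l1 −0.0113 without 3.5 h, −0.0302 without the libraries that stood apart and −0.0452 to 0.1364. Khsrp ranged from −0.0045 to 0.0333 and Tia1 from −0.0067 to 0.0749.

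The replicate numbers paired the libraries of the treatments little on average. Deviations from group means of the same number correlated at 0.05 on average over 35 pairs (−0.31 to 0.59), with 13 pairs over 0.1. The mean was −0.02 over 105 other pairs. These pairs do not show whether a number links libraries across times, as the replicate series take it to do. With the replicate block, 3375 genes were called over the chase, 1686 and 626 from 0 to 12 h in DMSO and STM2457, 139 in the difference, 1 by half-life and 603 by slope. Zfp36l2 could not be tested with unique reads. Depth limits Zfp36 most, whose log2 fold change at 0 h had an SE of 0.38 against 0.12 for Tial1.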
